A study of Mus musculus with 2 samples.

Results

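Radial glial cells (RGCs) are the stem cells of the embryonic cortex. Their bodies line the ventricle, they divide there, and they give rise to neurons directly or through intermediate progenitor cells (IPCs), which carry the transcription factor Eomes. Notch signalling through Hes1 and Hes5 keeps them undifferentiated, whereas Neurog2 starts neurogenesis. Mki67 and Top2a are proliferation genes whose transcripts peak from late S phase to mitosis and are scarce in early S phase and in G1, so that a low count of both can be found in cells that divide.

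The RGCs examined here were chosen by their own UMI counts (a UMI marks 1 captured transcript) in single-cell libraries made at embryonic day 14.5 from the mouse dorsal telencephalon. There were 2 libraries, replicates 2 and 4, both of WT genotype and untreated as far as the labels tell, and with 1 group neither genotypes nor treatments could be compared. The labels name the EomesDot line and brain hemispheres, and they do not say whether a library is 1 embryo or several pooled. A cell was a member when it had at least 2 Slc1a3 and 1 Sox9 UMIs, at most 2 UMIs each of Eomes, Neurog2, Rspo2 and Col3a1, at most 2 of Neurod2 and Neurod6 together and of Dlx1 and Dlx2 together, at most 1 of Lmx1a, and at most 2 of Mki67 and Top2a together. These rules left 90 members of 3182 retained cells, which were 28 of the 1211 cells of replicate 2, or 2.31% (exact Clopper-Pearson 95% limits 1.54% and 3.32%), and 62 of the 1971 cells of replicate 4, or 3.15% (limits 2.42% and 4.01%). They are called Mki67/Top2a-low RGCs below. None of the 3 barcodes present in both libraries was a member, and none of the members was called a doublet by Scrublet, which marked 14 retained cells (1.16%) in replicate 2 and 15 (0.761%) in replicate 4. Over all barcodes the libraries held 40267872 and 49422007 UMIs.

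The limits are absolute counts, and they depend on depth. The median member held 28003 UMIs in replicate 2 and 23222 in replicate 4, against 36000.5 and 30797 in RGCs that passed the other limits but had 3 or more Mki67 and Top2a UMIs (dividing RGCs, 122 and 162 cells). Mki67/Top2a-low RGCs were 18.7% of these RGCs in replicate 2 (12.8% to 25.8%) and 27.7% in replicate 4 (21.9% to 34.0%). When every cell was first thinned to 10000 UMIs, the shares were 38.0% and 40.5%. Just inside the limit, 9 and 16 cells had 2 UMIs of the pair, and just outside it 8 and 10 cells had 3, while 14 and 35 members had none.

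The label of radial glia was checked with the 6 markers given for it, of which Slc1a3 and Sox9 were used in the choice. Slc1a3 encodes a glutamate transporter of radial glia and astrocytes. Its summed level was 453 CPM (UMIs per 1000000 UMIs of the summed cells) in replicate 2 and 362 CPM in replicate 4, whereas excitatory neurons (401 and 585 cells, chosen by Neurod2 and Neurod6) were at 2.69 and 3.98 CPM. Pax6, a transcription factor of cortical RGCs, had a UMI in 92.9% and 91.9% of members unthinned. Hes1 had one in 67.9% and 69.4%, Hes5 in 71.4% and 56.5%, and Fabp7, which encodes a fatty acid-binding protein, in 100% and 91.9%. After thinning to 10000 UMIs these shares were 76.0% and 72.7% for Pax6, 44.0% and 58.2% for Hes1, 44.0% and 34.5% for Hes5, and 96.0% and 94.5% for Fabp7. Excitatory neurons thinned alike had a Pax6 UMI in 8.49% and 6.04% of cells, a Hes5 UMI in 0.822% and 0.585%, and a Fabp7 UMI in 39.5% and 40.4%. Hes1 had one in 0 of 365 neurons of replicate 2 and in 0.585% of those of replicate 4. For the 0 of 365 a floor of 3 cells, not an exact limit, allows a share of up to 0.822%. The 4 markers outside the rule thus had a UMI in a larger share of members than of neurons in both libraries, while Slc1a3 and Sox9 were fixed by the choice. The 12 neuron genes summed to 668 and 638 CPM in members against 9200 and 9247 CPM in excitatory neurons, and the 8 vascular, 7 meningeal and 8 microglial genes summed to between 5.25 and 23.6 CPM. Of the other lists, 7 erythroid genes summed to 99.8 and 284 CPM in members, against 208 and 800.1 CPM in excitatory neurons, and 12 hem and choroid plexus genes to 47.3 and 58.8 CPM, against 198 and 205 CPM. The 8 GABAergic genes summed to 86.7 and 73.5 CPM in members, above the 2.39 and 7.28 CPM of excitatory neurons. Dividing RGCs were at 81.2 and 101 CPM, and RGCs with at least 3 Neurog2 UMIs, described below, at 56.5 and 86.0 CPM. In members of either library 3 of the 8 genes, Gad1, Gad2 and Dlx5, had no UMI, which allows up to 1.41 CPM over both.

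**Figure D1:**
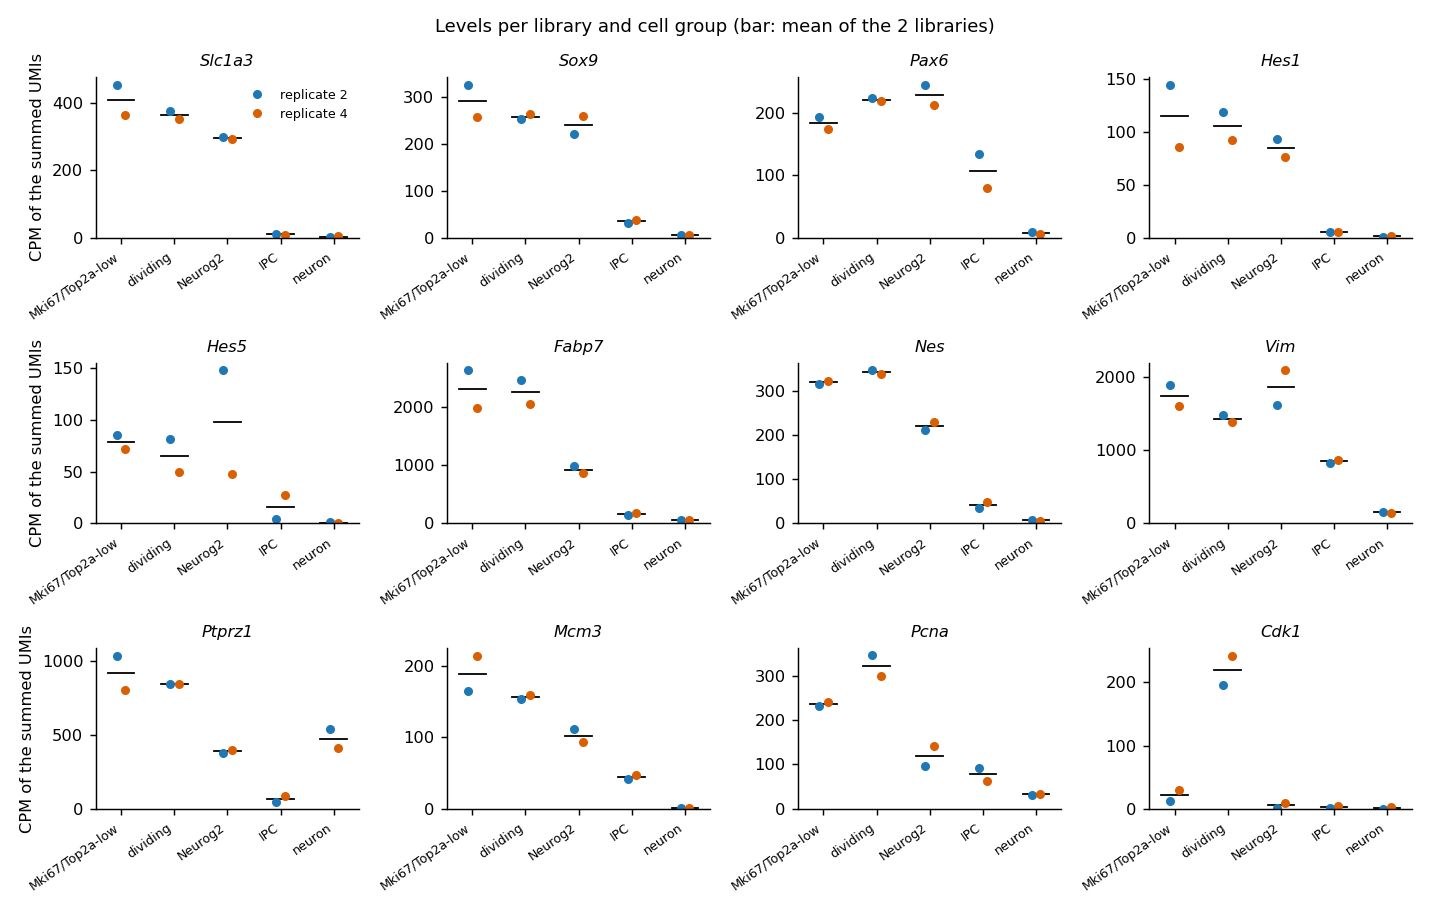
Summed levels (CPM, vertical axes from 0) of 12 genes in Mki67/Top2a-low RGCs, dividing RGCs, Neurog2 RGCs, IPCs and excitatory neurons, with 1 point per library and a bar at the mean. Hes1, Fabp7 and Mcm3 stood higher in the Mki67/Top2a-low RGCs than in IPCs and neurons, and Cdk1 was at 13.1 and 30.1 CPM in them against 196 and 242 CPM in dividing RGCs.

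A first question was which cell cycle transcripts these cells carried. Most of them had S phase transcripts above the level of neurons. Each cell was thinned to 10000 UMIs, which 25 of 28 and 55 of 62 members reached, and the UMIs of 40 S phase genes and of 40 G2/M genes were summed per cell. S phase genes such as Pcna, the Mcm2 to Mcm7 helicase subunits and Rrm2 serve DNA replication, and G2/M genes such as Cdk1, Ccnb1 and Plk1 drive mitosis. The S phase sum had a median of 38 UMIs in members of replicate 2 (from 1 to 73) and 46 in replicate 4 (from 2 to 85). It was 38 and 48 in dividing RGCs and 5 in excitatory neurons of either library. The medians of members and dividing RGCs thus lay within 2 UMIs of each other in either library. The G2/M sum differed, with medians of 9 in members of both libraries (from 2 to 89 and from 0 to 106), against 62 and 72.5 in dividing RGCs and 1 and 2 in excitatory neurons.

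With the 99th percentile of excitatory neurons of the same library as the limit, 21 of 25 members in replicate 2 (84.0%, 63.9% to 95.5%) and 45 of 55 in replicate 4 (81.8%, 69.1% to 90.9%) were above it for the S phase list. The corresponding shares were 92.0% and 96.7% in dividing RGCs and 0.548% and 1.17% in neurons. For the G2/M list 64.0% and 60.0% of members were above the limit, and 3 and 7 members lay within 1 UMI of it. With 5000 UMIs per cell the G2/M shares were 37.0% and 44.1%, so this share depended on the depth, and the S phase shares were 81.5% and 72.9%. Only 3 members of replicate 2 and 9 of replicate 4 were below both limits. Among members without any Mki67 or Top2a UMI the S phase list was still above the limit in 10 of 12 and 22 of 30 cells. These sums come from the cells that were chosen and are given as a description.

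**Figure D2:**
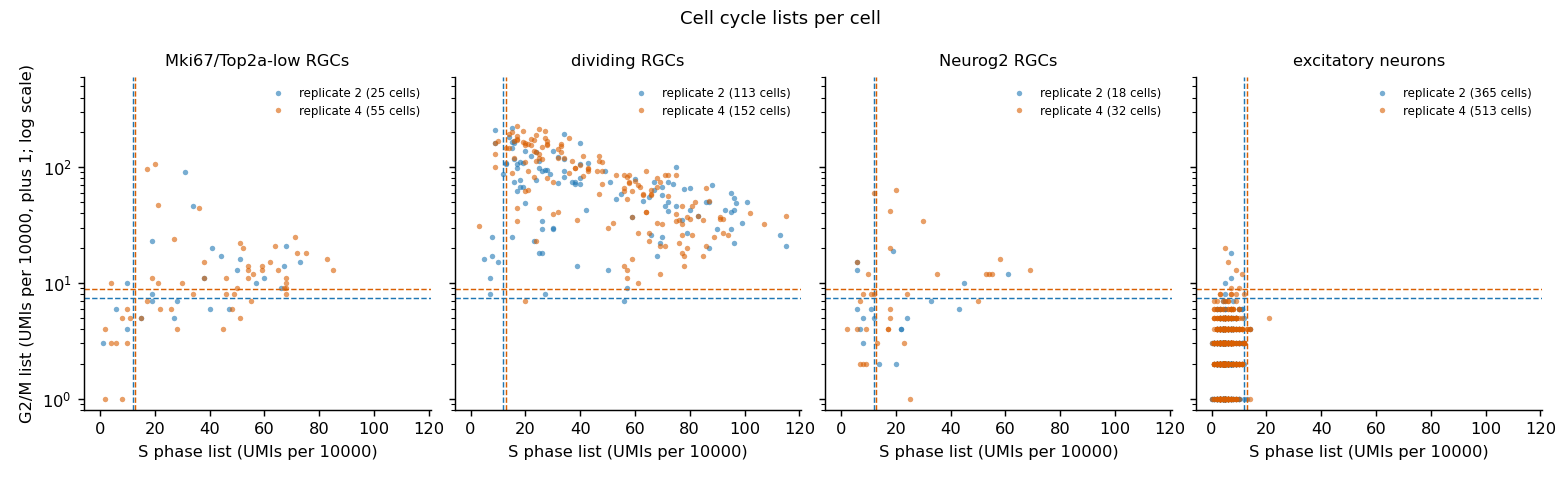
UMIs of the S phase list (horizontal axis) and of the G2/M list plus 1 (vertical axis, log scale) in single cells thinned to 10000 UMIs, for 4 cell groups, colored by library; dashed lines are the 99th percentile of excitatory neurons. Most Mki67/Top2a-low RGCs lie to the right of the S phase limit, as dividing RGCs do, but low on the G2/M axis, and excitatory neurons fill the lower left corner.

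**Figure D3:**
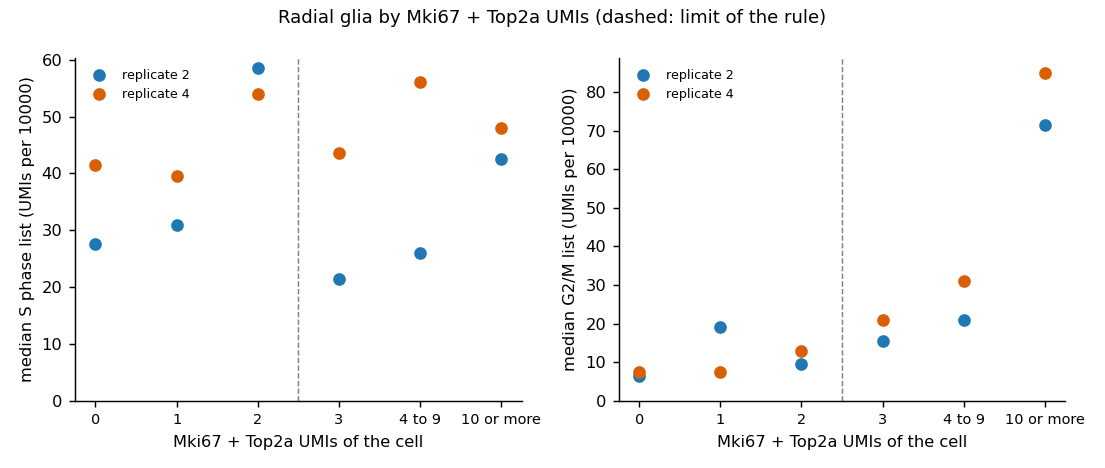
Median S phase sum and median G2/M sum (UMIs per 10000) of RGCs by their number of Mki67 and Top2a UMIs, with 1 point per library; the dashed line is the limit of the rule. The S phase medians stand between 21.5 and 58.5 on both sides of the limit without an order, while the G2/M medians are at most 19 inside it and reach 71.5 and 85 in cells with 10 or more.

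The Mki67/Top2a-low RGCs were next compared with dividing RGCs, gene by gene, on UMIs summed per library and group (edgeR quasi-likelihood test, Benjamini-Hochberg adjustment over all genes tested, called at an adjusted p-value under 0.05). The groups were separated by Mki67 and Top2a, so that lower cell cycle genes can follow from the choice. This covers the S phase and G2/M lists, histone genes and other genes of replication or mitosis. Their values and p-values are given as a description only. The test covered 9874 genes, and 25 (0.253%) passed as higher and 240 (2.43%) as lower in the Mki67/Top2a-low RGCs. With the library as a replicate block 63 were higher and 301 lower. All 40 genes of the G2/M list were lower, with a median log2 fold change of -3.31 beside 0.01 over all genes. Of the 40 S phase genes 6 were lower, none was higher and 34 were not called, with a median of -0.26. The dividing RGCs of replicate 4 also held much hemoglobin RNA: 7 erythroid genes summed to 5148 CPM there, against 67.9 CPM in replicate 2 and 99.8 and 284 CPM in the members. None of the 5 erythroid genes tested was called, 2 were called lower with the block, and the part of this RNA in other results was not tested.

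Nucleotide supply genes were among the 6 S phase genes that were lower. Rrm2, a subunit of the ribonucleotide reductase, was at 61 and 142 UMIs in the members of replicates 2 and 4 and at 918 and 1276 UMIs in dividing RGCs, which is 92.2 ± 17.1 against 230 ± 36.5 CPM (SD, n = 2). Its log2 fold change was -1.30 (SE 0.25, edgeR adjusted p = 0.0242). Both libraries of members lay below both of dividing RGCs. Rrm1, the other subunit, fell by 1.28 (edgeR adjusted p = 0.00241) and Tyms, which makes thymidylate, by 1.19 (0.0293). Clspn and Rad51ap1, of the replication checkpoint and of recombination, had log2 fold changes of -1.08 and -1.27, and Gmnn, the inhibitor of relicensing, one of -1.18. Rad51ap1 lost the call under 2 of 12 alternatives and Rrm2, Tyms and Gmnn under 1 each. The genes of the Mcm helicase and its loading were not called. Mcm3 was at 164 and 214 CPM in members and 154 and 159 CPM in dividing RGCs (log2 fold change 0.28, SE 0.16, with an edgeR adjusted p of 0.502). Values for Mcm2 (0.40), Mcm4 (0.40), Mcm6 (0.22), Mcm7 (0.00) and the licensing factor Cdt1 (0.42) were near 0 or above it, and those of Mcm5 (-0.06) and Pcna (-0.45) below it. Ung, a uracil glycosylase, had the highest value of the list at 0.82 (edgeR adjusted p = 0.0655). With the block Ung passed as higher (0.80, edgeR adjusted p = 0.0473) and Fen1, a flap endonuclease, as lower (-0.84, 0.0491).

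Replication-dependent histone genes, a group picked after the results had been seen, were also lower. Of the 24 tested, 16 passed as lower in the members and none higher, with a median log2 fold change of -3.11. Hist1h2ae was at 11 and 12 UMIs in members and 1772 and 1089 UMIs in dividing RGCs (log2 fold change -4.80, SE 0.38, edgeR adjusted p = 0.000207). Hist1h2ap and Hist1h2ab, 2 further H2A genes, had values of -4.61 and -4.52. Without replicate 4 they were at -3.99 and -6.37, and without replicate 2 at -4.49 and -3.19, values that have no test. These are log2 ratios of CPM with a small count added, not fitted values, as are all values without a replicate below. Their mature transcripts lack a poly(A) tail, and the capture used here was of poly(A) RNA. By the rule for named genes the other genes that were lowest were Esco2, a cohesin acetyltransferase (2 and 4 against 442 and 489 UMIs, log2 fold change -5.10), Depdc1a (-5.07, and -3.87 without replicate 4) and Depdc1b. Depdc1b had no UMI in members and 186 and 346 in dividing RGCs, which makes it at least 39.6-fold lower against a floor of 3 UMIs over both libraries.

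Among the few genes that were higher, Rmst, a long noncoding RNA of neural progenitors, was at 473 and 530 CPM in members and 272 and 159 CPM in dividing RGCs (log2 fold change 1.22, SE 0.25, edgeR adjusted p = 0.0383). A few members carried most of it. In cells thinned to 10000 UMIs, the 4 of 25 and 13 of 55 members with at least 30 UMIs over 5 co-varying genes described below, Rmst among them, held 69 and 257 Rmst UMIs, the other 21 and 42 held 6 and 38, and the median member had 0. Igfbpl1 was at 238 and 162 against 79.0 and 65.6 CPM (1.45, edgeR adjusted p = 0.0175). Sdk2, a cell adhesion molecule, had 1.73 (edgeR adjusted p = 0.00335), Adamts19 1.37, Dlgap4 0.98 and Mtss1 0.93. In all 6 the levels of members lay above those of dividing RGCs in both libraries. The calls of Rmst and Mtss1 were lost under 3 of 12 alternatives, that of Adamts19 under 4, those of Sdk2 and Dlgap4 under 2 and that of Igfbpl1 under 1. Hk2, a hexokinase, was the only one of 16 glycolysis genes called (0.96 ± 0.21 SE on the log2 scale, edgeR adjusted p = 0.0492). This call was lost under 8 of 12 alternatives. In all, 14 of the 16 had values above 0, with a median of 0.24.

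Stem cell identity genes were not called without the block. This held for all of the 27 radial glia identity genes (median log2 fold change 0.08), 20 Notch pathway genes (0.04), 19 genes of G1 control and cell cycle exit (-0.08), 20 genes of quiescent neural stem cells (0.14), 15 genes of neurogenic commitment (0.55), 27 genes of pallial patterning (0.02), 14 of temporal identity (0.06), 6 of the glial lineage (0.24), 35 receptor genes (-0.004) and 19 apical junction genes (0.01). Fabp7 was at 2633 and 1975 CPM against 2465 and 2046 CPM (log2 fold change 0.03, SE 0.15). Hes5 was at 85.4 and 72.0 against 81.7 and 49.4 CPM (0.25, SE 0.39), and Hes1 at 144 and 85.9 against 118 and 91.9 CPM (0.09, SE 0.23). Levels of the groups overlapped for all 3 genes. Hopx, which marks outer radial glia and quiescent stem cells, was at 62.7 ± 25.6 against 31.8 ± 7.35 CPM (1.02, SE 0.33, edgeR adjusted p = 0.203), and it passed as higher with the library as a replicate block (0.95, edgeR adjusted p = 0.0333). The block also called the receptor gene Ephb1 higher (1.02). The 4 and 13 members holding most of Rmst had 50 and 108 Ephb1 UMIs, and the other 21 and 42 had 8 and 29. These members were chosen by a sum that includes Ephb1 itself, so that this split follows from the choice. With the block the dissociation stress gene Hspa1a was called higher (1.003, edgeR adjusted p = 0.0476). The inhibitors Cdkn2c (-2.37) and Cdkn2d (-2.22), the neuregulin Nrg3 (-0.78) and its receptor Erbb4 (-2.002) were called lower. Ccnd2, a cyclin of radial glia, was at 827 ± 51.9 against 767 ± 118 CPM (0.10), and the inhibitor Cdkn1b had a value of -0.29. Cdkn1c, a cyclin-dependent kinase inhibitor, was at 1.31 and 8.08 CPM in members, against 334 and 250 CPM in IPCs. Of 8 basal radial glia-associated genes 1, the mitotic gene Arhgap11a, was lower (-3.47, edgeR adjusted p = 0.000913).

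RGCs that had started neurogenesis were the next comparison. Neurog2 RGCs (19 and 37 cells) passed the same limits except for at least 3 Neurog2 UMIs. S phase sums were above the neuron limit in 55.6% and 59.4% of them, with medians of 16.5 and 17.5 UMIs. Among 9874 genes 20 (0.203%) passed as higher and 8 (0.081%) as lower in the Mki67/Top2a-low RGCs, and 79 and 24 with the library as a replicate block. By edgeR 0 genes were called when groups were formed from a random 50% of the UMIs of each cell and tested on the rest, where 988 genes had an unadjusted p-value under 0.05. After thinning to 10000 UMIs before the choice of cells, 7 genes were higher and 17 lower, so the balance of directions was not stable.

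All 40 S phase genes had log2 fold changes above 0, with a median of 0.98, and 4 of them were called higher, with 12 under the block. Hells, a chromatin remodeler of replicating cells, was at 251 and 253 CPM in members against 109 and 106 CPM in Neurog2 RGCs (log2 fold change 1.23, SE 0.15, edgeR adjusted p = 0.0273). Clspn (2.62), Rpa2 (1.45) and Mcm4 (1.30) were also higher. From the radial glia identity list Fabp7, at 2304 ± 465 against 920 ± 85.4 CPM (1.32, SE 0.16, edgeR adjusted p = 0.0273), and Ptprz1, a receptor phosphatase, at 921 ± 162 against 388 ± 14.0 CPM (1.24), were higher, and 25 of 27 were not called, with 6 of 27 higher under the block, which added Tnc (1.45), Mt3 (0.92), Ddah1 (0.60) and Qk (0.53). Pax6 (-0.31), Vim (-0.09) and Sox2 (0.23) were not called in either fit. The groups were separated by Neurog2 itself, so that genes linked to it are given as a description. Of 15 neurogenic commitment genes 3 were lower, and 14 had values below 0, with 7 lower under the block. Gadd45g, a growth arrest and DNA damage gene, was at 4 and 25 UMIs against 73 and 121 UMIs (-3.45, SE 0.34, edgeR adjusted p = 0.0161), with -2.96 without replicate 2 and -4.50 without replicate 4. Insm1, a zinc finger factor of basal progenitor formation, had -2.39 and Elavl4, a neuronal RNA-binding protein, -1.74. The Notch ligand Dll1, at 5 and 3 against 27 and 22 UMIs, missed the threshold (-3.30, edgeR adjusted p = 0.0627) and passed it with the block (-3.25, edgeR adjusted p = 0.0379), and the other 19 Notch pathway genes were called in neither fit.

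By the rule for named genes Eepd1 (3.32), Wdhd1, a replication factor (1.89), Cdh20, a cadherin (1.87) and Rorb, a nuclear receptor (1.87), were higher. Kcnn2, a potassium channel (-2.01), Prag1 (-1.22), Rhbdl3 (-1.11) and the chromatin remodeler Chd7 (-0.89) were lower. Wdhd1 and Prag1 lost the call under 6 of 12 alternatives, Rorb and the S phase genes Mcm4 and Rpa2 under 5, Kcnn2 and Rhbdl3 under 4, Eepd1, Cdh20, Chd7, Clspn and Hells under 3, Insm1 also under 3, Elavl4 under 2, and Gadd45g, Fabp7 and Ptprz1 under 1. Dnmt1, the maintenance DNA methyltransferase the study is about, was named after its values had been seen. It was at 87 and 132 UMIs in members and 22 and 35 in Neurog2 RGCs, which is 106 ± 12.2 against 42.9 ± 0.07 CPM (1.28, SE 0.19, edgeR adjusted p = 0.0384), a call lost under 4 of 12 alternatives. Against dividing RGCs, at 138 ± 2.74 CPM, its value was -0.40 (edgeR adjusted p = 0.241).

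The widest contrast was with IPCs that had few Mki67 and Top2a UMIs. The planned group held 23 cells in replicate 4 but 7 in replicate 2, under the 10 cells set as the minimum, so the limit on Neurod2 and Neurod6 was raised to 10 UMIs after this had been seen, which gave 30 and 83 cells. These IPCs carried neuronal RNA. The 12 neuron genes summed to 2934 and 2469 CPM in them, against 668 and 638 CPM in members, and 9 of the 12 passed as lower in members (median log2 fold change -2.62). The neurogenic commitment genes summed to 8604 and 9541 CPM in the IPCs and to 8481 and 8784 CPM in excitatory neurons. The part of this RNA in the results against IPCs was not tested. These cells were chosen for at least 3 Eomes and at most 1 Slc1a3 UMIs, so that identity genes tied to either are described only. The test covered 10449 genes, and 1412 (13.5%) passed as higher and 1200 (11.5%) as lower in the Mki67/Top2a-low RGCs.

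**Figure D4:**
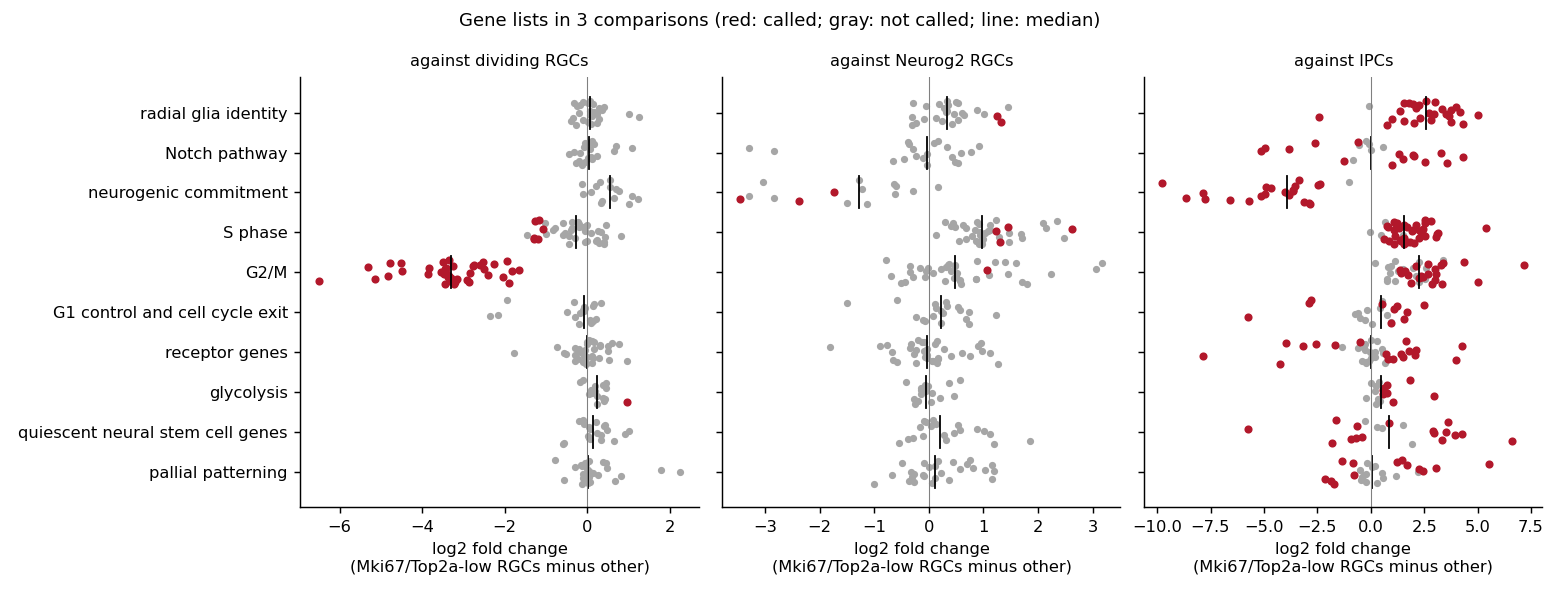
Log2 fold changes of the genes of 10 lists (horizontal axis, Mki67/Top2a-low RGCs minus the other group) against dividing RGCs, Neurog2 RGCs and IPCs, with called genes in red, others in gray and a line at the median of each list. Against dividing RGCs the G2/M list stands apart with all 40 genes called. Against IPCs the radial glia identity, neurogenic commitment, S phase and G2/M lists stand apart, with 22 of 40 G2/M genes called.

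Radial glia identity genes were higher in 25 of 27 cases, with a median log2 fold change of 2.59. Hes1 had 110 and 117 UMIs in members and 5 and 9 in IPCs, which is 115 ± 41.4 against 5.42 ± 0.22 CPM (4.32, SE 0.37, edgeR adjusted p = 7.12e-05). Fabp7 (3.76), Ednrb, an endothelin receptor (5.03), Ttyh1 (4.16), Ptprz1 (3.66) and Nes, an intermediate filament (2.83), followed. Leaving out replicate 2 or 4 gave Ednrb 3.88 or 6.32 and Ptprz1 3.07 or 4.43. Slc1a2, a second glutamate transporter, went the other way (-2.42, edgeR adjusted p = 0.0177), at 38 and 12 against 159 and 160 UMIs, lost the call under 1 of 12 alternatives, and was at -3.36 without replicate 2 and -1.84 without replicate 4. Neurogenic commitment genes were lower in 21 of 22 cases, with a median of -3.92, also with the 2 genes without a UMI in members, Neurod4 and Nhlh1, at their bounds. S phase genes were higher in 36 of 40 cases (median 1.56) and G2/M genes in 22 of 40 (2.26). Cdt1 (3.06), Uhrf1, the partner of DNMT1 at replication forks (3.16) and Mcm3 (2.03) were examples, with Cdt1 at 2.23 without replicate 4.

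Notch pathway genes were called in both directions. The receptors were higher in members: Notch2 was at 186 and 362 UMIs against 18 and 36 (log2 fold change 3.57, edgeR adjusted p = 1.36e-05), Notch3 had 2.54 and Notch1 1.02. The targets Hes1 and Hey1 (1.98), the feedback inhibitor Nrarp (1.32), the coactivator Maml2 (1.51) and the glycosyltransferase Lfng (3.29) were also higher. Hes5 was at 85.4 and 72.0 CPM in members and 4.46 and 27.5 CPM in IPCs (2.01, SE 0.63, edgeR adjusted p = 0.0436), with 3.91 without replicate 4 and 1.28 without replicate 2, and its call was lost under 3 of 12 alternatives, as was that of Mib1, with 2 for Hey1 and 1 for Nrarp. The ligands Dll1 (-3.82) and Dll3 (-4.93), the glycosyltransferase Mfng (-5.15), the Notch antagonist Numbl (-2.63), the ligand-activating ligase Mib1 (-0.60) and Rbpj (-1.24), the DNA-binding partner of Notch, were lower. In all, 9 of 21 genes were higher, 6 lower and 6 not called, beside 13.5% of all genes tested higher and 11.5% lower. Several of these sizes rested on 1 library. Without replicate 2 the values were 1.95 for Notch3, 0.72 for Nrarp, 1.81 for Lfng, -4.40 for Mfng and -2.32 for Numbl. Without replicate 4 they were 3.77, 2.27, 4.30, -7.23 and -3.32, and that of Dll1 was -2.79.

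Receptors and other surface proteins of the receptor list were called in both directions, with 11 of 36 higher and 7 lower. Over all genes tested these shares were 13.5% and 11.5%. Fgfr1 (2.09), Fgfr2 (0.69) and Fgfr3 (1.41), Efnb1 (1.02), the reelin receptor Vldlr (4.25) and Ephb3 (3.97) were higher. The value of Ephb3 rests on 6 and 9 UMIs against 0 and 1, and its call was lost under 2 of the 9 alternatives that tested it. Sstr2, a somatostatin receptor, had 0 and 1 UMIs in members and 97 and 223 in IPCs (-7.86, SE 0.62). Lrp8, the other reelin receptor (-3.19), Nrp1 (-3.96), Robo2 (-2.57) and Epha3 (-4.25) were lower too. Epha3 was at 27.6 and 109 CPM in members and 770 and 1884 CPM in IPCs, the libraries of either group far apart. Without replicate 2 or 4 the values were -3.81 or -1.02 for Robo2, 0.97 or 2.14 for Fgfr3, 2.91 or 3.93 for Vldlr, -6.39 or -6.55 for Sstr2 and -3.85 or -4.57 for Nrp1. Epha4, Epha5, Epha7, Ephb1 and Nlgn1 were not called, with values of -0.23, 0.67, -0.21, -0.09 and 0.02.

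Of the G1 control genes Gas1 (2.49), Cdk6 (1.55) and Ccnd2 (0.94) were among 7 of 20 that were higher, and Cdkn1c (-5.74, with -4.89 without replicate 2 and -7.10 without replicate 4) among 3 that were lower. With the block 7 were higher and 5 lower, and over all genes tested 13.5% were higher and 11.5% lower. Glycolysis genes were higher in 8 of 16 cases and lower in none, Aldoc (2.96) and the lactate transporter Slc16a1 (1.85) among them, the latter lost under 3 of 11 alternatives. Among genes outside the identity lists, the rule named Eepd1 (7.01), the sorting receptor Sorcs1 (5.99), the laminin Lama1 (5.94), the transcription factor Etv5 (5.55), the collagen Col25a1 (5.11) and the phospholipase Plce1 (4.98) as highest. Without replicate 2 or 4 these were 6.38 or 4.12 for Eepd1, 4.36 or 7.91 for Sorcs1, 4.71 or 4.92 for Lama1, 4.42 or 5.05 for Etv5 and 5.32 or 4.20 for Col25a1. The lowest were St18, Ebf2, Plcxd3, Ebf3 and Nhlh2, each without a UMI in members, which were at least 136, 47.8, 43.7, 42.1 and 32.9-fold lower, and Slc17a6, a vesicular glutamate transporter, at 0 and 1 against 85 and 428 UMIs (-8.43, and -7.33 or -6.36 without replicate 2 or 4).

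Promoter sequences were read for these pathways from RefSeq (GRCm38.p6, the patch release of the mm10 build named in the submitters' processing notes), as the 250 bases before each start. Notch acts through RBPJ, whose core site is TGGGAA on either strand, and S phase genes are known targets of E2F factors, for which TTTGGCGC and TTTCCCGC on either strand were searched, motifs added after the results had been seen. No motif contains another. The RBPJ core was present in 5 of 23 promoters of the 18 Notch pathway genes matched (21.7%) and in 21.6% of all 32851 promoters. Other lists had higher shares: 11 of 31 promoters of radial glia identity genes (35.5%), 9 of 34 of S phase genes (26.5%) and 9 of 35 of G2/M genes (25.7%). E2F letters were present in 7 of 34 promoters of the 30 S phase genes matched (20.6%), in 0 of 35 of the G2/M genes and in 1.30% of all promoters. The Hes5 promoter, chosen as the Notch target with 2 cores, lies at chr4:154960673-154960922 on the plus strand. Those of Mcm5 (chr8:75109259-75109508, plus strand) and Mcm6 (chr1:128359706-128359955, minus strand) are shown as helicase genes with a match. The promoters of Mcm3, Pcna, Rrm2 and Cdt1 held none of the E2F letters. Capitals mark the RBPJ core in Hes5 and the E2F letters in Mcm5 and Mcm6, and a match is a description of letters, not of binding.
Hes5: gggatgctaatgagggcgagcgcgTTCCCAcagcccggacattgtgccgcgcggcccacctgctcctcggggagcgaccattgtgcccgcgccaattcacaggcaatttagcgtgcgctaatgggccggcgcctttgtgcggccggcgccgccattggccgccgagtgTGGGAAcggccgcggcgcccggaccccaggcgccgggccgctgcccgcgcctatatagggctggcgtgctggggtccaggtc
Mcm5: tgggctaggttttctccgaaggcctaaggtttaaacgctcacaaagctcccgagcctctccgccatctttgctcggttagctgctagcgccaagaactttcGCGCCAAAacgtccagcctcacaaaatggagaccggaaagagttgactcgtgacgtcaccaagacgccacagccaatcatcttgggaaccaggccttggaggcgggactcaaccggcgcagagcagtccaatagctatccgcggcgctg
Mcm6: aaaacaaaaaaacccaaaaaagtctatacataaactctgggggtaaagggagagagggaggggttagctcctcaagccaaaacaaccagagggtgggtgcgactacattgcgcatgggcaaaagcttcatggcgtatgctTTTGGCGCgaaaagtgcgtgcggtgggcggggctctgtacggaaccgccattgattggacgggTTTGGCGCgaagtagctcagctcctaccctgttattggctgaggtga

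Mcm5 was at 94.9 ± 24.7 CPM in members, 101 ± 3.21 CPM in dividing RGCs, 33.9 ± 9.36 CPM in Neurog2 RGCs and 27.8 ± 11.2 CPM in IPCs. The order of members and dividing RGCs was within their spread, while members and IPCs differed (1.83 on the log2 scale, or 1.06 without replicate 4, edgeR adjusted p = 0.00177). Mcm6 was at 199.8 ± 7.20, 170.1 ± 0.51, 108 ± 19.8 and 71.6 ± 1.18 CPM in the same groups.

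Variation among the members themselves was described in the 25 and 55 cells thinned to 10000 UMIs, with no test. The variance to mean ratio had a median of 1.29 and 1.30 over 3486 genes, and 14 genes were among the 30 highest in both libraries, 10 of them also at 5000 UMIs. Nrg1, the gene of neuregulin 1, ranged from 1 to 103 UMIs per cell in replicate 2 (median 19) and from 0 to 229 in replicate 4 (median 10). Fabp7 ranged from 0 to 215 (median 14) and from 0 to 137 (median 16). The adhesion gene Csmd1, the netrin receptor Dcc, the ephrin receptor Ephb1 and Rmst were also among the 14, and Ephb1 had a median of 0 in both libraries but reached 33 and 36 UMIs.

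Dcc, Ephb1, Plcb1, Cadps and Rmst varied together over cells. Pearson's r between Ephb1 and Plcb1 was 0.987 in replicate 2 (25 cells) and 0.810 in replicate 4 (55 cells), and between Dcc and Ephb1 0.963 and 0.760. In replicate 2 both values rest on few cells. Of its cells 1 had 33 Ephb1, 29 Plcb1 and 52 Dcc UMIs, and another had 13, 13 and 24. The others had at most 3 Ephb1 and 2 Plcb1 UMIs. The wnt antagonist Sfrp1 ran against Cadps (-0.600 and -0.416) and Ephb1 (-0.416 and -0.389), and the S phase sum against Ephb1 (-0.309 and -0.405). A second set joined Fabp7 with Dbi (0.644 and 0.567) and Vim (0.454 and 0.513). Cells of 1 library share its free RNA, and 406 pairs were computed. A sum of at least 30 UMIs over the 5 genes, a limit set after the values had been seen, was reached by 4 of 25 and 13 of 55 members. In these cells Sfrp1 was at 0 in 3 of 4 and 9 of 13, against 1 of 21 and 1 of 42 of the other members. The median Fabp7 count was 3 in both libraries against 19 and 18, and the median S phase sum was 17 and 11 against 41 and 47. The same sum was reached by 83.6% and 81.5% of excitatory neurons, 85.7% and 63.2% of the 7 and 19 thinned cells of the planned IPC group, 22.2% and 43.8% of Neurog2 RGCs and 8.85% and 11.2% of dividing RGCs, and the part of RNA of neurons or IPCs in this result was not tested. Slc1a3 was at 1 and 2.62 UMIs per cell in these members and 5.86 and 4.26 in the others, Sox2 at 1.5 and 0.85 against 2.62 and 1.79, and Pax6 at 1.75 and 1.31 against 2.33 and 1.86. Sox9 was at 3.25 and 2.85 UMIs in these members and 3.52 and 2.5 in the others. Tubb3, a neuronal tubulin, was at 0.75 and 1.62 against 0.33 and 0.19 UMIs, but 1 cell held 12 of its 21 UMIs in replicate 4, where the other 12 cells averaged 0.75 and 8 of the 13 cells had none.

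**Figure D5:**
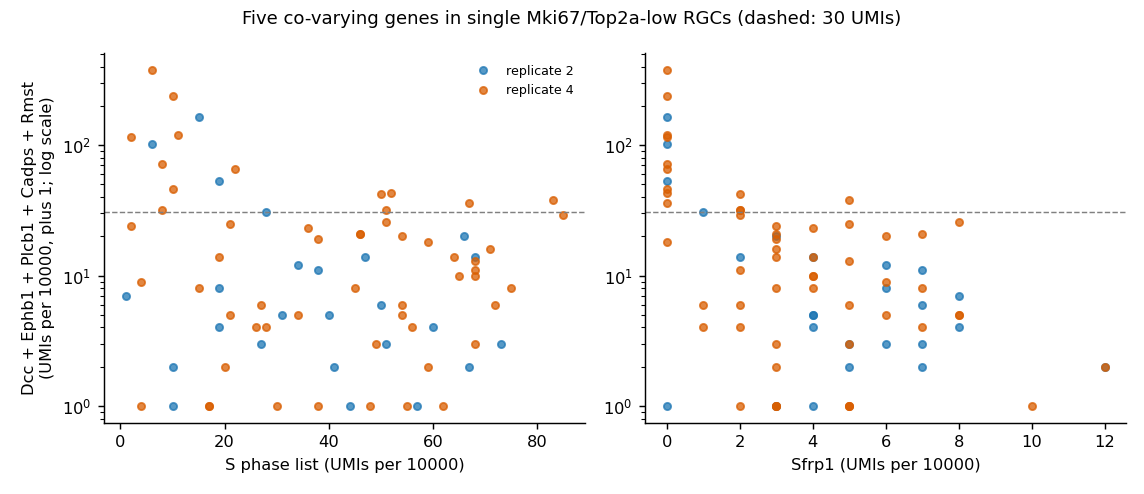
Summed UMIs of Dcc, Ephb1, Plcb1, Cadps and Rmst plus 1 (vertical axis, log scale) in single Mki67/Top2a-low RGCs thinned to 10000 UMIs, against the S phase sum (left) and Sfrp1 (right), colored by library; the dashed line is at 30 UMIs. Of the 17 cells on or above the line 12 have no Sfrp1 UMI, and 8 are among the 12 members below both cell cycle limits.

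Of the 12 members below both cell cycle limits (3 and 9 cells), 8 had a sum of at least 30 UMIs over the 5 genes, 1 of 3 in replicate 2 and 7 of 9 in replicate 4. Slc1a3 was at 5.33 and 5.11 UMIs per cell in these 12 and at 5.05 and 3.63 in the other members, and Ccnd2 at 7.33 and 5.67 against 8.55 and 8.87. Fabp7 was at 15 and 15.7 UMIs against 28.3 and 21.7, Hes5 at 0.33 and 0.22 against 0.86 and 0.67, Sox2 at 2.33 and 1.22 against 2.45 and 1.63, and Pax6 at 5 and 1 against 1.86 and 1.87. With 3 cells in replicate 2 they were too few for a test.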

How the data were processed

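Dorsal telencephalon cells of 2 WT libraries (embryonic day 14.5) had been captured by the authors with a droplet kit for 3′ ends of poly(A) RNA and processed with Cell Ranger 7.0.0 on mm10, per the submitters' notes. What the authors deposited is a matrix of raw UMI counts, 32285 genes by barcodes, without normalization. Cells needed 1000 genes or more and no more than 10% mitochondrial UMIs. The members and gene lists were chosen with earlier results of these data known. Groups of at least 10 cells per library were summed, and edgeR 4.0.16 (quasi-likelihood, TMM, filterByExpr) was run in R 4.3.3 on 6 sums, or 8 with IPCs. DESeq2 1.42.0, other filters, gates, depths and a fit with the library as block were alternatives, and the fit was tested on simulated data. Sums of 1 library share their embryos, which pairs them: their deviations correlated with r of 0.0865 to 0.222 over 6 pairs of groups. Doublets were called with Scrublet in scanpy 1.11.5. Cells were never used as replicates, the origin of replicates from separate embryos is not stated, and p-values measure the spread between these 2 libraries only. Intervals cover counting error alone. Standard errors were approximated from the F statistic.

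Named genes were, per comparison, the 6 largest fold changes in each direction among called genes with at least 50 CPM in the higher group and the same sign in both libraries, outside the 13 genes of the rules, cell cycle lists (dividing RGCs), neurogenic commitment (Neurog2 RGCs, IPCs) and radial glia identity (IPCs), besides genes of the 22 lists. Some genes that the rule or the lists name are not reported here.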

Additional observations from a re-analysis of the deposited data

How the results depend on the processing

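The number of called genes against dividing RGCs was 265 and stayed within 1.5 times of it under 11 of 12 alternatives, and was 676 with all genes of at least 1 count. Those higher numbered 25, but 131 without the filter, 63 with the replicate block and 7 after thinning. Against Neurog2 RGCs 28 genes were called, and 117 with DESeq2, 450 without the filter, 103 with the library as a replicate block, 14 with only both groups in the fit, 0 with groups from 50% of the UMIs, and 6 with members limited to no Mki67 or Top2a UMI. Against IPCs 2612 genes were called, and 1824 to 3192 under 12 alternatives. The cause of these shifts was not tested, except that the filter sets how many genes enter. Members were 2.73% of retained cells on average, and 1.47% without any Mki67 or Top2a UMI, 3.64% with groups from 50% of the UMIs and 3.91% after thinning. The average share above the neuron limit was 82.9% for the S phase list, with 77.2% at 5000 UMIs and 78.3% in members without Mki67 or Top2a. For the G2/M list it was 62.0%, with 40.6% at 5000 UMIs, 77.5% with the 95th percentile and 50% in members without Mki67 or Top2a. Over 178 fold changes of called genes, named in the text or in 8 of the lists, 1993 of 2131 recomputed values kept their direction and call, 138 kept the direction and lost the call, and none was reversed. Leaving out either library gives values with no test. They are log2 ratios of CPM with a small count added to each sum, not fitted values, and the added count shrinks values of genes with few UMIs. They differed from the fitted ones by over 1.5 times for 4 of 20 genes against dividing RGCs and 1 of 19 against Neurog2 RGCs (Gadd45g). Against IPCs it was 44 of 137, with none reversed in any comparison. For Sstr2 both leave-out values, -6.39 and -6.55, were smaller in size than the fitted -7.86. The parts of the library and of the calculation in these differences were not told apart. A fit of members below both cell cycle limits was not run, since replicate 2 held 3 such cells.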
